A study of Homo sapiens with 6 samples.

Results

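The SLC25 genes encode the mitochondrial carrier family, and 53 of its members were read in RNA-seq libraries of LoVo cells after depletion of the lncRNA *SNHG15*. Members were the protein-coding genes whose symbol is *SLC25A* followed by a number, together with *UCP1*, *UCP2*, *UCP3*, *MTCH1* and *MTCH2*, and they make up 53 of the 63677 genes in the table. LoVo is an established colorectal cancer cell line. The *SNHG15* siRNA group received both siRNAs against the lncRNA as a combination and the scramble group received a negative control siRNA, each at 25 nM for 48 h with Lipofectamine 2000, and each group held 3 libraries described as biological replicates. Both groups are cells of 1 line and both were transfected. The family was chosen with the siRNA and scramble values already known, so the differences below are given as a description. Members that passed the threshold are counted in the same sense, and no p is printed for a member.

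Mitochondrial carriers are small membrane proteins, most of them in the inner mitochondrial membrane, that exchange metabolites between the cytosol and the matrix. The ADP/ATP carriers export ATP made by oxidative phosphorylation in exchange for ADP, the phosphate carrier supplies the phosphate for it, and other members move carboxylates, amino acids, nucleotides, cofactors or iron. Uncoupling proteins belong to the same family, while *MTCH1*, *MTCH2* and *SLC25A46* are divergent members of the outer membrane. Among the ADP/ATP carriers *SLC25A5* is the form typical of proliferating cells, and *SLC25A4* is best known from heart and skeletal muscle.

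The libraries held between 3446922 and 10256710 counts, and scramble replicate 3 was the smallest. CPM here means counts divided by library size with TMM factors from edgeR, and fold changes come from edgeR's quasi-likelihood fit over the 12507 genes that passed its filter on low counts. *SNHG15* itself was at 276 ± 14.3 CPM (SD, n = 3) in scramble and 82.5 ± 5.0 CPM (SD, n = 3) in siRNA libraries, a log2 fold change of -1.74 ± 0.12 (SE) with an adjusted p of 2.62e-05 in edgeR, and it was lower in all 3 siRNA libraries. The labelled cell type was only partly borne out by epithelial markers. *EPCAM* had at most 1 count and *KRT20* and *VIL1* had 0 in all 6 libraries, which allows up to 3 counts in each if their reads could be counted. The annotation and the treatment of reads are not given, and whether counts of some genes were lost was not tested. *KRT8*, *KRT18*, *CDX2* and *CDH1* were detected with mean levels of 46.4, 23.9, 27.9 and 7.52 CPM in scramble. *CDH1* was at 4.43 CPM in siRNA libraries, and the 3 libraries lay below all scramble libraries. Of 5 matched markers of blood cells and stroma, 4 had at most 1 count in any library and *COL1A1* had 2 to 9. The libraries are therefore called here as they were labelled, and the part of these markers in the results was not tested.

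Of the 53 members, 41 passed the filter and 12 did not. At an adjusted p under 0.05 over all genes, 3 of the 41 were called, which is 7.32% beside 5.36% of all 12507 genes tested. *SLC25A4* was called lower (2.23% of all genes were) and *SLC25A45* and *SLC25A36* were called higher (3.13% of all genes were). In these libraries of whole cultures, fewer cells that carry a transcript and less of it per cell cannot be told apart. The siRNA and scramble libraries did not overlap for 12 members, 7 of them lower and 5 higher, which is 29.3% of members beside 28.8% of all genes, where 14.1% were lower and 14.7% higher. The fitted change was below 0 for 24 members and above 0 for 17, while 49.9% of all genes were below 0. The median log2 fold change was -0.05 over members and 0.00 over all genes tested. For 26 of the 41 members the log2 fold change was smaller than 0.25 in size, and for 2 it was at least 1.

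**Figure D1:**
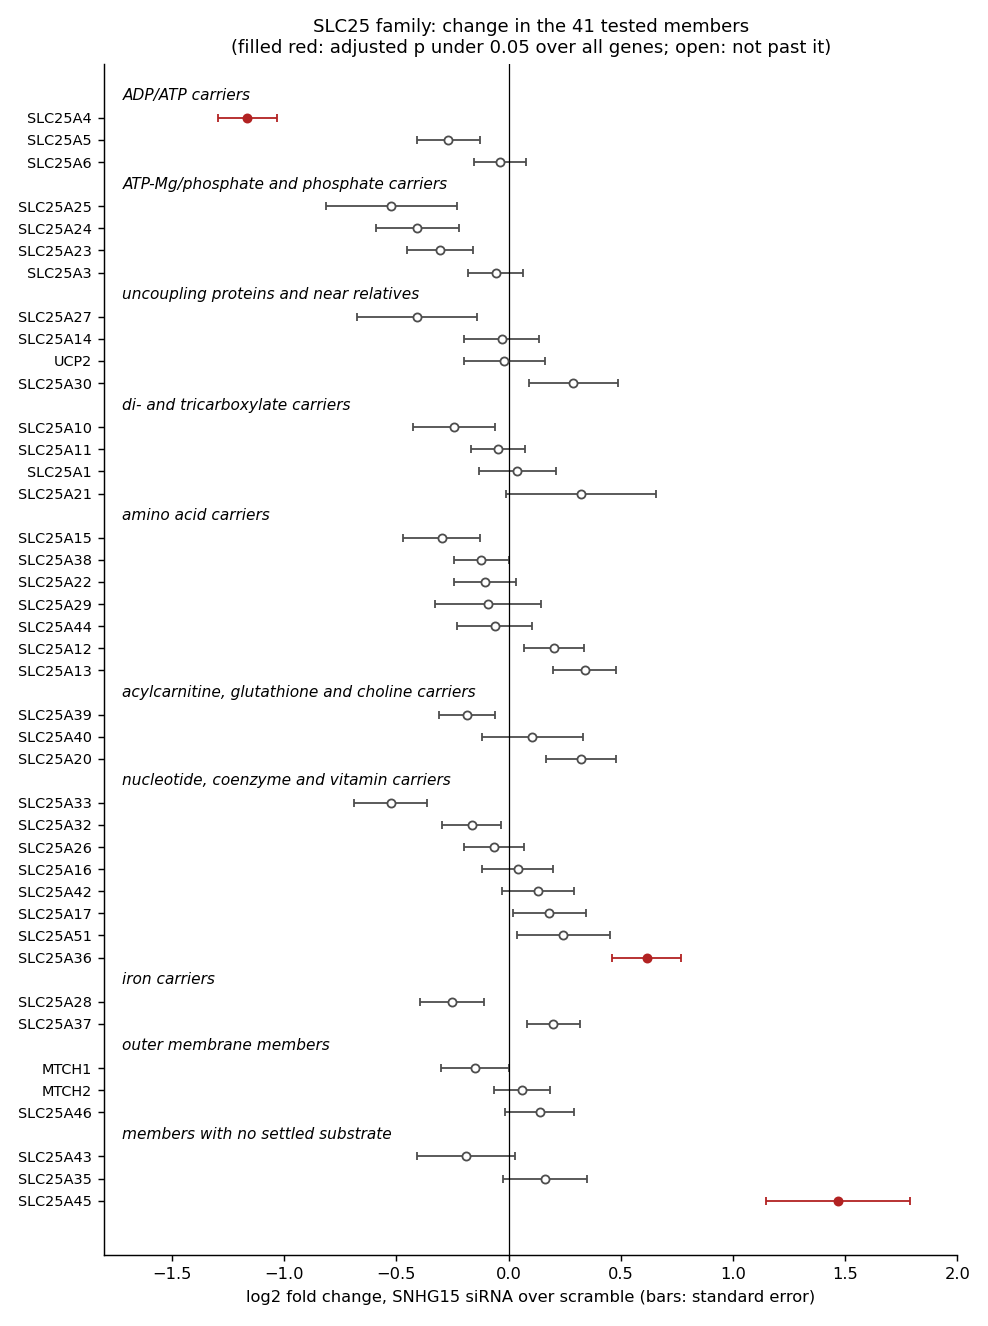
Log2 fold change of each of the 41 tested members (horizontal axis, siRNA over scramble) with its standard error as a bar, grouped by role. Filled red points are the 3 members called at an adjusted p under 0.05 over all genes, *SLC25A4* at -1.16, *SLC25A36* at 0.61 and *SLC25A45* at 1.47, and open points are the other 38.

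Of the ADP/ATP carriers, which share 1 function, *SLC25A4* lay lower in the siRNA libraries and the other 2 expressed paralogs had overlapping groups. *SLC25A4* (ENSG00000151729), also called ANT1, lies on the plus strand of chromosome 4 from 186064420 to 186071536 on GRCh37. It was at 302, 320.0 and 340.2 CPM in scramble replicates 1 to 3 and at 122, 153 and 154 CPM in siRNA replicates 1 to 3. The lowest scramble library was well above the highest siRNA library, and the siRNA mean was 44.6% of the scramble mean. The group means were 321 ± 18.9 CPM (SD, n = 3) and 143 ± 18.2 CPM (SD, n = 3), and the log2 fold change was -1.16 ± 0.13 (SE).

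*SLC25A5* (ENSG00000005022, ANT2), the carrier typical of dividing cells, lies on the plus strand of chromosome X from 118602385 to 118605359. It was at 1161, 1022 and 1039 CPM in scramble and at 712, 942 and 1023 CPM in siRNA libraries. siRNA replicate 1 was low and replicate 3 lay just above scramble replicate 2, so that the groups overlapped, and the log2 fold change was -0.27 ± 0.14 (SE). *SLC25A6* (ENSG00000169100, ANT3), the carrier found in most tissues, is a minus-strand gene of chromosome X (1505045 to 1511006) in the region shared with chromosome Y. It was at 863, 939 and 904 CPM in scramble and at 902, 937 and 797 CPM in siRNA libraries. Its groups overlapped and its log2 fold change was -0.04 ± 0.12 (SE), an amount smaller than its error. *SLC25A31*, the germ cell paralog, had 0 counts in all 6 libraries.

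**Figure D2:**
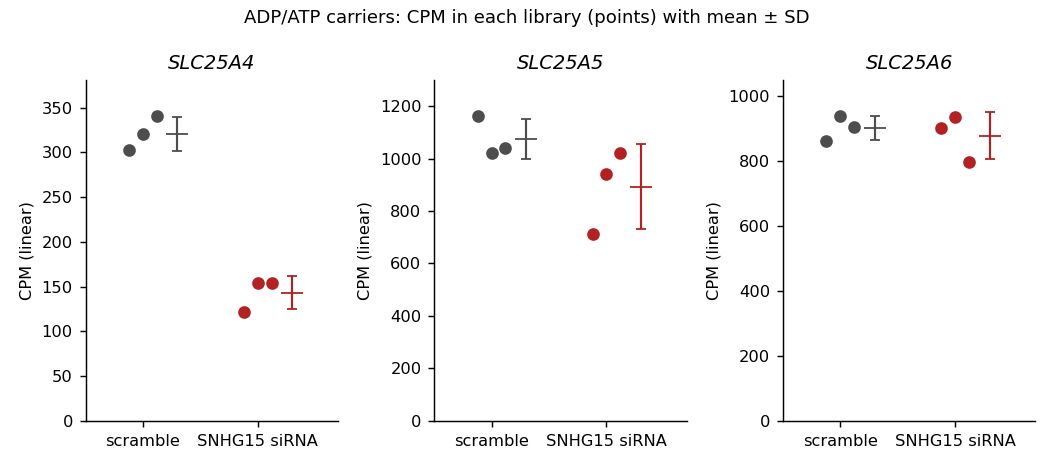
CPM (linear axes starting at 0) of the 3 expressed ADP/ATP carriers in each of the 6 libraries, grey for scramble and red for siRNA, with the mean and SD of each group beside the points. The siRNA points of *SLC25A4* lie between 122 and 154 CPM, below all scramble points, while those of *SLC25A5* and *SLC25A6* overlap with scramble.

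A ratio of paralogs within a library needs no scaling between libraries. *SLC25A4* made up 13.0%, 14.0% and 14.9% of the summed counts of the 3 paralogs in scramble replicates 1 to 3, and 7.04%, 7.55% and 7.80% in siRNA replicates 1 to 3. The 95% Wilson intervals cover counting error only. They ran from 12.5% to 13.5% in the lowest scramble library, replicate 1, and from 7.40% to 8.21% in the highest siRNA library. In scramble replicate 2 the interval ran from 13.6% to 14.5%, which did not reach that of scramble replicate 1. The intervals are thus narrower than the spread between replicates, and their separation does not compare the groups. The share of *SLC25A5* was 46.7% ± 2.76 in scramble and 46.4% ± 5.41 in siRNA libraries (SD, n = 3 each), and that of *SLC25A6* was 39.3% ± 2.05 and 46.1% ± 5.80, both with overlapping groups. The log2 ratio of *SLC25A4* to *SLC25A5* counts was -1.74 ± 0.17 in scramble and -2.63 ± 0.10 in siRNA libraries (SD, n = 3 each), a difference of -0.89 with no overlap. Against *SLC25A6* the same ratio differed by -1.13, again with no overlap, whereas the ratio of *SLC25A5* to *SLC25A6* differed by -0.24 with overlapping groups. *SLC25A4* was thus lower relative to both paralogs and not only relative to the library as a whole.

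**Figure D3:**
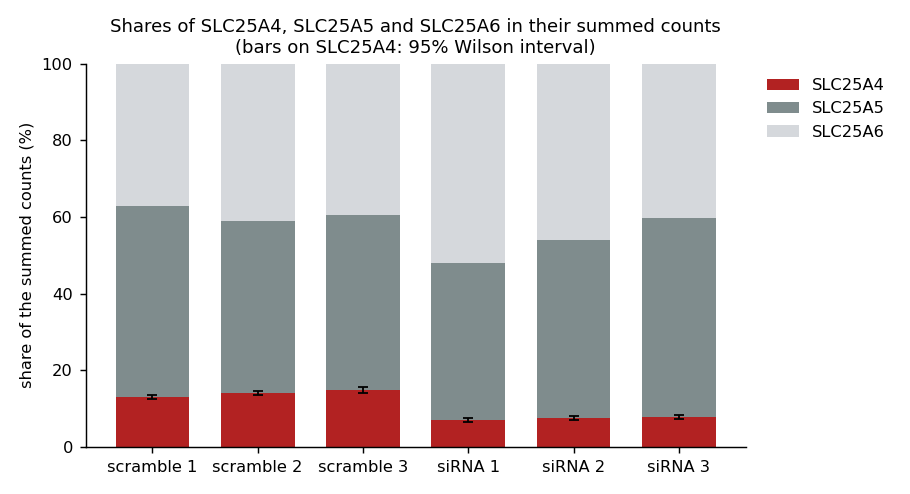
Share of *SLC25A4*, *SLC25A5* and *SLC25A6* in their summed counts (vertical axis, percent) in each library, with the 95% Wilson interval on *SLC25A4*. The *SLC25A4* share lies between 13.0% and 14.9% in scramble and between 7.04% and 7.80% in siRNA libraries.

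The 3 paralogs together were at 2297 ± 25.2 CPM in scramble and 1914 ± 157 CPM in siRNA libraries (SD, n = 3 each). The summed level was lower in all siRNA libraries, and the siRNA mean was 83.3% of the scramble mean, a log2 ratio of -0.26. All 53 members together were at 5415 ± 93.6 and 4907 ± 154 CPM, and without *SLC25A4* they were at 5094 ± 98.5 and 4764 ± 136 CPM. With RLE and upper-quartile factors the sum of all 53 members was likewise lower in all siRNA libraries, at log2 ratios of -0.14 and -0.11. Without such factors this was not so. As a plain percent of each library's counts the family took 0.524% ± 0.00400 in scramble and 0.505% ± 0.0272 in siRNA libraries (SD, n = 3 each), and those groups overlapped.

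Reads of one paralog could in principle be counted on another, so the coding sequences were compared in the GENCODE transcripts on GRCh37. Each of the 3 is 897 bases long, and identity was 77.3% between *SLC25A4* and *SLC25A5*, 77.9% between *SLC25A4* and *SLC25A6* and 78.8% between *SLC25A5* and *SLC25A6*. None of the 823 aligned windows of 75 bases, the read length, was identical in any pair, and the fewest differences were 7, 8 and 6 in these pairs. The stretch where *SLC25A5* and *SLC25A6* together came closest to *SLC25A4* is shown, although *SLC25A6* alone came closer to *SLC25A4* elsewhere. It covers coding bases 62 to 136 and crosses an exon junction, with bases that differ from *SLC25A4* in capitals. Its genomic span is chr4:186064588-186065942 on the plus strand for *SLC25A4*, chrX:118602540-118603648 on the plus strand for *SLC25A5* and chrX:1508596-1510841 on the minus strand for *SLC25A6*, and it holds 7 differences in *SLC25A5* and 10 in *SLC25A6*.
SLC25A4: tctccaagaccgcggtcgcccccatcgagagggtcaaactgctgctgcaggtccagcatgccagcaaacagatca
SLC25A5: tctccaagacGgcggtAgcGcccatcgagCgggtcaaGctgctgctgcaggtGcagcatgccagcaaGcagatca
SLC25A6: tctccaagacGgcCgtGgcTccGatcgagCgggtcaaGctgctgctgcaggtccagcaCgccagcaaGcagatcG

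Copies elsewhere in the genome took few counts. The annotation lists 41 processed pseudogenes of 15 members, the highest of which had 15 counts in any library. Together they came to at most 0.583% of the counts of their parent where the parent was expressed, for *MTCH2*, and to at most 0.305% for *SLC25A5* and 0.206% for *SLC25A6*. No window of 75 bases of the *SLC25A4* or *SLC25A5* transcript occurred exactly in the transcript of another gene. *SLC25A6* shared all of its windows with its copy on chromosome Y, *SLC25A32* shared 87.8% and *SLC25A10* shared 61.5% with overlapping gene entries that have no symbol, and *SLC25A51* shared 28.7%, partly with *SLC25A52*. *SLC25A33* shared 14.7%, most of it with a gene entry that has no symbol. The counts of these members may depend on how reads with several placements, or reads over overlapping genes, were treated. They may also depend on which entries the annotation used for counting held. Neither is given in the sources used here.

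*SLC25A45* had the largest fitted rise of the family and belongs to the members with no settled substrate. It is annotated as ENSG00000162241 on chromosome 11 from 65142663 to 65151172, minus strand. It had 17, 25 and 2 counts in scramble replicates 1 to 3, or 1.99, 2.49 and 0.605 CPM, and 42, 39 and 41 counts in siRNA replicates 1 to 3, or 5.82, 5.61 and 4.82 CPM. All siRNA libraries lay above all scramble libraries, at a low level throughout, and scramble replicate 3, the smallest library, was under the 3 counts used as a floor. The log2 fold change was 1.47 ± 0.32 (SE), the widest error among the called members. Without scramble replicate 1, scramble replicate 2 or siRNA replicate 2 the gene was no longer called, at 1.49, 1.80 and 1.45. A filter of 10 counts in every library left it untested.

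*SLC25A36*, a carrier of pyrimidine nucleotides, is annotated as ENSG00000114120 on the plus strand of chromosome 3 from 140660672 to 140699837. It was at 17.6, 16.2 and 16.3 CPM in scramble and at 24.4, 23.0 and 29.4 CPM in siRNA libraries. The groups were well apart, with siRNA replicate 3 highest, and the log2 fold change was 0.61 ± 0.15 (SE). With the replicate number as a block it was 0.59 and no longer called. The direction was the same when each library was left out, from 0.50 to 0.69, but the gene was called in 1 of those 6 fits, the one without siRNA replicate 1. Between 139 and 356 genes were called in all when a scramble library or siRNA replicate 2 was absent. Without siRNA replicate 3, its highest library, *SLC25A36* was not called either. That fit called 665 genes, against 671 with all libraries.

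*SLC25A33*, the other pyrimidine nucleotide carrier, went the opposite way. It was at 114, 97.5 and 95.9 CPM in scramble and at 52.8, 80.3 and 80.6 CPM in siRNA libraries. The groups did not overlap, siRNA replicate 1 was lowest, and the log2 fold change of -0.52 ± 0.16 (SE) did not pass the threshold in edgeR. It passed in 2 of 7 alternatives with all libraries, DESeq2 and no filter, at -0.53 and -0.55. In the 6 fits that left out 1 library it passed in 0.

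**Figure D4:**
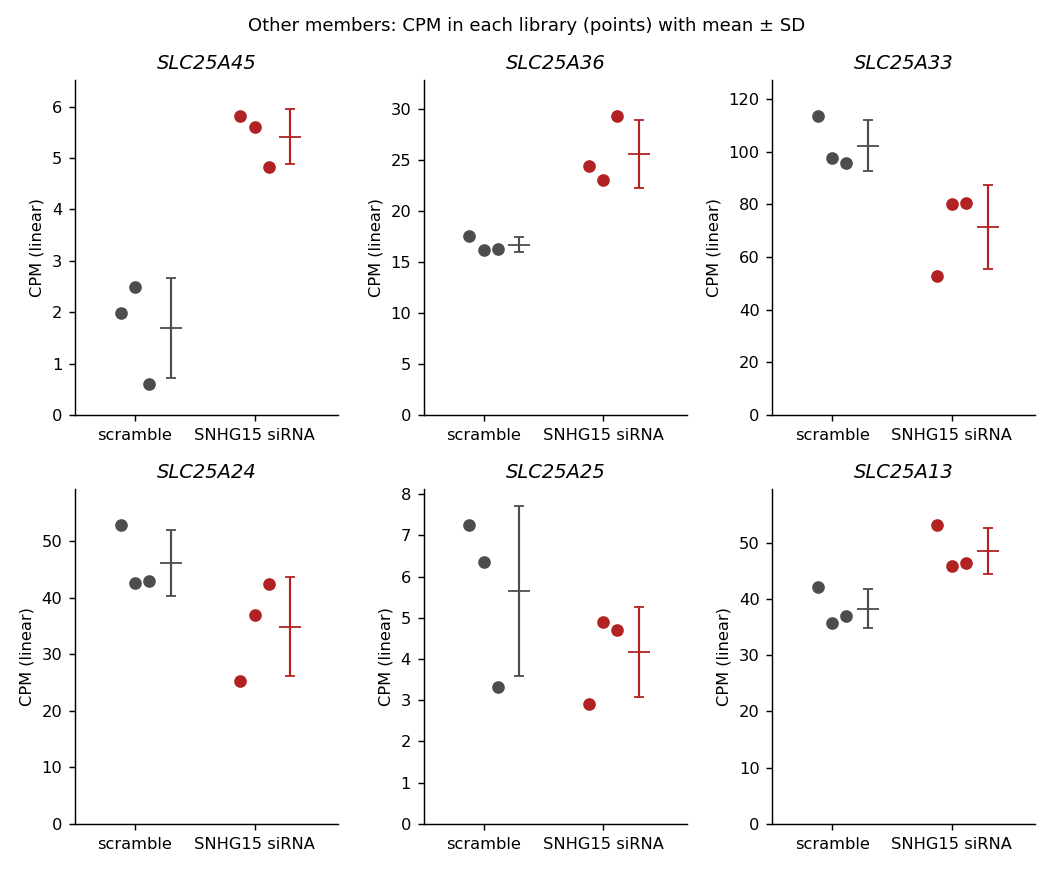
CPM (linear axes starting at 0) of 6 further members in each library, grey for scramble and red for siRNA, with the mean and SD beside the points. *SLC25A45*, *SLC25A36* and *SLC25A13* are higher and *SLC25A33* and *SLC25A24* lower in all siRNA libraries, while the groups of *SLC25A25* overlap.

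Among the other 6 tested carriers of nucleotides, coenzymes and vitamins, log2 fold changes ran from -0.16 to 0.24 and the groups overlapped for each. *SLC25A32*, the folate carrier, had the highest CPM of the group at 130 ± 7.91 in scramble and 116 ± 15.7 in siRNA libraries (SD, n = 3 each). *SLC25A26*, which imports S-adenosylmethionine, had a log2 fold change of -0.07 ± 0.13 (SE), and *SLC25A51*, which carries NAD, had 0.24 ± 0.21 (SE). The coenzyme A carriers *SLC25A16* and *SLC25A42* were at 0.04 ± 0.16 and 0.13 ± 0.16 (SE), and the peroxisomal carrier *SLC25A17* at 0.18 ± 0.16 (SE).

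The phosphate and ATP-Mg/phosphate carriers were all fitted below 0, and none was called. *SLC25A3*, the phosphate carrier of the inner membrane, was at 1031, 964 and 973 CPM in scramble and at 844, 941 and 1071 CPM in siRNA libraries. The siRNA libraries reached both below and above the scramble range, and the log2 fold change was -0.06 ± 0.12 (SE). The 3 tested ATP-Mg/phosphate carriers, which respond to calcium, had log2 fold changes of -0.52 ± 0.29 for *SLC25A25*, -0.41 ± 0.19 for *SLC25A24* and -0.30 ± 0.15 for *SLC25A23* (SE). *SLC25A24* was at 53.0, 42.7 and 42.9 CPM in scramble and 25.2, 36.97 and 42.5 CPM in siRNA libraries. *SLC25A23* was at 26.0, 31.0 and 32.1 CPM in scramble and 25.5, 23.0 and 23.3 CPM in siRNA libraries. The groups of both were apart by a narrow margin, less than 1 CPM between the closest libraries. *SLC25A25* was at 7.27, 6.37 and 3.33 CPM in scramble and 2.91, 4.89 and 4.70 CPM in siRNA libraries, where scramble replicate 3 fell inside the siRNA range.

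The uncoupling proteins and their near relatives showed no member past the threshold. *UCP2*, the form found in many tissues, was at 98.6, 94.7 and 108 CPM in scramble and at 135, 81.3 and 80.8 CPM in siRNA libraries. siRNA replicate 1 was above and the other siRNA libraries were below the scramble range, which left a log2 fold change of -0.02 ± 0.18 (SE). *SLC25A14* had -0.03 ± 0.17 and *SLC25A27* -0.41 ± 0.27 (SE), with overlapping groups. *SLC25A30* was at 6.56, 6.07 and 7.26 CPM in scramble and at 8.46, 7.34 and 8.10 CPM in siRNA libraries. Its groups were just apart, and its log2 fold change was 0.29 ± 0.20 (SE).

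The di- and tricarboxylate carriers all had overlapping groups. *SLC25A1*, the citrate carrier that feeds fatty acid synthesis, was at 155, 143 and 173 CPM in scramble and at 206, 121 and 156 CPM in siRNA libraries, with a log2 fold change of 0.04 ± 0.17 (SE). The spread among siRNA libraries was wider than the difference between groups. *SLC25A11*, the oxoglutarate/malate carrier, had -0.05 ± 0.12, the dicarboxylate carrier *SLC25A10* -0.24 ± 0.18 and the oxodicarboxylate carrier *SLC25A21* 0.32 ± 0.34 (SE).

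Both aspartate/glutamate carriers, which serve the malate-aspartate shuttle, lay higher in all siRNA libraries without being called. *SLC25A13* was at 42.2, 35.7 and 36.9 CPM in scramble and at 53.2, 45.9 and 46.4 CPM in siRNA libraries, with a log2 fold change of 0.34 ± 0.14 (SE). *SLC25A12* was at 36.7, 39.6 and 38.1 CPM in scramble and at 39.9, 44.2 and 47.5 CPM in siRNA libraries, with 0.20 ± 0.14 (SE). For *SLC25A12* the closest libraries of the groups nearly touched. The ornithine carrier *SLC25A15* lay lower in all siRNA libraries, at 11.5 ± 0.507 in scramble and 9.32 ± 0.456 CPM in siRNA libraries (SD, n = 3 each), which gave a log2 fold change of -0.30 ± 0.17 (SE). The glutamate carrier *SLC25A22* had the highest CPM of the group, 137 ± 5.70 in scramble and 128 ± 21.5 in siRNA libraries (SD, n = 3 each), and its groups overlapped. The glycine carrier *SLC25A38*, the basic amino acid carrier *SLC25A29* and the branched-chain amino acid carrier *SLC25A44* had log2 fold changes of -0.12 ± 0.12, -0.09 ± 0.23 and -0.06 ± 0.17 (SE), all with overlapping groups.

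*SLC25A39*, a glutathione carrier, was at 338, 345 and 351 CPM in scramble and at 322, 326 and 261 CPM in siRNA libraries. The groups were apart, with siRNA replicate 3 lowest, and the log2 fold change was -0.18 ± 0.13 (SE). Its paralog *SLC25A40* had 0.11 ± 0.22 and the carnitine/acylcarnitine carrier *SLC25A20* 0.32 ± 0.15 (SE), with overlapping groups. The iron carriers, the mitoferrins, differed in sign. *SLC25A28* was at 30.3 ± 3.41 in scramble and 25.2 ± 0.460 CPM in siRNA libraries (SD, n = 3 each) with no overlap and a log2 fold change of -0.25 ± 0.14 (SE), and *SLC25A37* was at 119 ± 6.96 and 137 ± 9.06 CPM with overlap and 0.20 ± 0.12 (SE). Of the outer membrane members, *MTCH2*, an insertase for outer membrane proteins, had 0.06 ± 0.13, *MTCH1* had -0.15 ± 0.15 and *SLC25A46* had 0.14 ± 0.15 (SE). Of the other members with no settled substrate, *SLC25A35* had 0.16 ± 0.19 and *SLC25A43* -0.19 ± 0.22 (SE).

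The 12 members below the filter had few or no counts. *SLC25A31*, *SLC25A47*, *SLC25A52*, *SLC25A53* and *UCP1* had 0 counts in all 6 libraries. If their reads could be counted, this allows up to 3 counts in each, or between 0.292 and 0.870 CPM. *SLC25A2*, *SLC25A34* and *SLC25A48* had 1 to 3 counts at most. *UCP3* had 1 to 8 counts, *SLC25A18* had 2 to 7 and *SLC25A41* had 3 to 16. *UCP1*, the heat-producing carrier of brown fat, and *SLC25A2*, the second ornithine carrier, were thus not detectable as expressed here. No difference between the groups could be read for any of the 12.

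Levels between genes can be compared only per length, and are given here as CPM per kb of one annotated transcript. In scramble libraries *SLC25A5* stood first at 822 ± 57.8 and *SLC25A6* second at 622 ± 26.1 CPM per kb (SD, n = 3 each), followed by *SLC25A39* at 218 ± 4.11 and *SLC25A3* at 165 ± 6.02. The first 4 did not overlap with one another. *SLC25A1* followed at 101 ± 9.91. *SLC25A4* was in place 7 with 72.7 ± 4.29, between *SLC25A11* with 75.4 ± 3.55 and *MTCH2* with 61.9 ± 5.90, and the libraries of *SLC25A11* and *SLC25A4* overlapped. In siRNA libraries *SLC25A4* was at 32.4 ± 4.12 CPM per kb. The transcript of *SLC25A4* used here is 4415 bases long and that of *SLC25A5* 1307, so that per kb of coding sequence *SLC25A4* stood in place 4, at 358 CPM per kb in scramble and 160 in siRNA libraries. By coding sequence *SLC25A3* stood in place 3 with 911 in scramble libraries. The order behind *SLC25A5* and *SLC25A6* therefore changed with the length used.

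**Figure D5:**
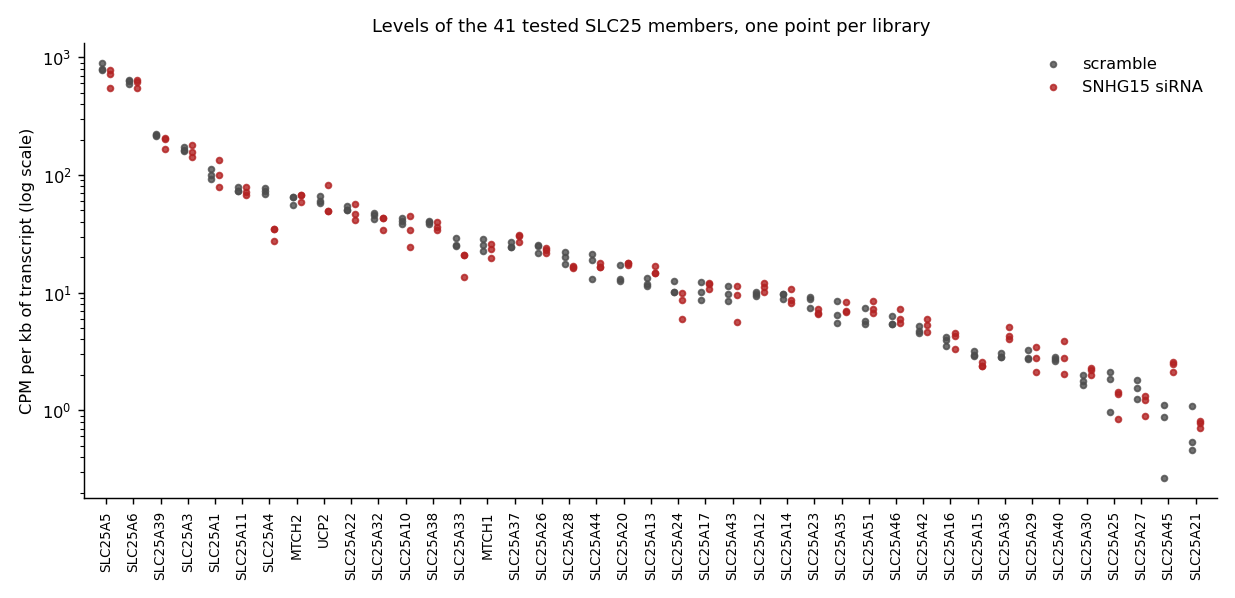
CPM per kb of transcript (log axis) of the 41 tested members, ordered by their scramble mean, with one point for each library (grey for scramble, red for siRNA). Scramble means run from 822 for *SLC25A5* down to 0.696 for *SLC25A21*. *SLC25A4* and *SLC25A45* are the members whose red and grey points are furthest apart.

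Carriers reach the inner membrane through the TOM complex, the small TIM chaperones and the TIM22 complex. The gene lists from here on were chosen with earlier results of these data known, so their calls and adjusted p are a description too. Of 16 genes on this import list 15 were tested, 1 was called lower, beside 2.23% of all genes, and none higher, beside 3.13%. The fitted change was below 0 for 11 of the 15, beside 49.9% of all genes, and the median log2 fold change was -0.14 beside 0.00. *TIMM9*, a small TIM chaperone of the intermembrane space, was at 31.1, 33.9 and 31.8 CPM in scramble and at 20.4, 23.2 and 23.3 CPM in siRNA libraries. The siRNA libraries were clearly below scramble, with a log2 fold change of -0.54 ± 0.14 (SE) and an adjusted p of 0.0441 in edgeR. That call held in 4 of 7 alternatives with all libraries, where the adjusted p ran from 0.0308 to 0.0716, and in 0 of the 6 fits that left out 1 library, where it ran from 0.0515 to 0.174. *TOMM6* had 0 counts in all libraries.

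Of 20 other mitochondrial transporters, all tested, 1 was called higher and 1 lower, beside 3.13% and 2.23% of all genes tested, and the median log2 fold change was 0.04 beside 0.00. *MPC1*, a subunit of the mitochondrial pyruvate carrier, was at 49.9, 46.1 and 53.2 CPM in scramble and at 66.8, 76.7 and 81.4 CPM in siRNA libraries, and rose by 0.60 ± 0.13 (SE) on the log2 scale with an adjusted p of 0.0220 in edgeR. Its partner subunit *MPC2* had a log2 fold change of -0.24 ± 0.15 (SE) with overlapping groups. *SFXN2*, a sideroflexin of the inner membrane, was at 26.8, 26.8 and 29.9 CPM in scramble and at 17.9, 17.0 and 19.0 CPM in siRNA libraries, and fell by 0.62 on the log2 scale (SE 0.14) with an adjusted p of 0.0258 in edgeR. Both were higher or lower in 3 of 3 siRNA libraries, and both passed in 7 of 7 alternatives with all libraries. Of the 6 fits that left out 1 library, *MPC1* passed in 1 and *SFXN2* in 2, with adjusted p up to 0.109 and 0.103 in edgeR, and neither passed without scramble replicate 1, 2 or 3 or siRNA replicate 2, nor *MPC1* without siRNA replicate 3.

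None of the 7 tested genes of mitochondrial adenylate and phosphate transfer was called by edgeR or DESeq2, and 0 had an unadjusted p under 0.05. *PPIF*, the cyclophilin of the permeability transition pore and one of the most abundant, had a log2 fold change of -0.27 ± 0.16 (SE, adjusted p 0.322 in edgeR). *PPIF* was called when siRNA replicate 1 was left out, at -0.47 with an adjusted p of 0.0341 in edgeR. None of the 10 tested regulators of mitochondrial biogenesis was called by edgeR or DESeq2, and 1 had an unadjusted p under 0.05. The most abundant of them, *YY1* and *PPRC1*, had log2 fold changes of -0.06 ± 0.11 and -0.28 ± 0.13 (SE). *PPARGC1B*, named after its values were seen, was at 7.51 ± 1.45 in scramble and 11.6 ± 1.57 CPM in siRNA libraries (SD, n = 3 each), which gave a log2 fold change of 0.67 ± 0.20 (SE) with an adjusted p of 0.0735 in edgeR. *PPARGC1A*, the best known of these coactivators, had 0 counts in all libraries.

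Transfected siRNAs can also act on transcripts whose 3′ UTR pairs with bases 2 to 8 of their guide strand, the seed, so matches were counted in one transcript of each gene. The letters sought on the transcript strand were ATGTTCA for siRNA #1 and CACAGCA for siRNA #2. Matches to the seed of the control siRNA, given to the scramble group, were not counted. Of the 41 tested members 13, or 31.7%, held at least 1 match, beside 28.3% of 10498 tested protein-coding genes. The median log2 fold change was -0.25 over these 13 members and -0.02 over the other 28, and it was -0.04 and 0.01 for all protein-coding genes with and without a match. Members with a match had longer 3′ UTRs, with a median of 2365 bases beside 1141.5, and the part of the seeds in any difference was not tested. Of the called members, *SLC25A4* held 1 match to siRNA #2 and *SLC25A36* 1 match to siRNA #1, and *SLC25A45* held none, as did *SLC25A5* and *SLC25A6*. Thus 1 of the called members with a match was lower and 1 was higher. The sites of the called members are shown with the seed match in capitals, at chr4:186068320-186068349 and chr3:140699731-140699760 on GRCh37, both on the plus strand. They begin their match at base 206 of a 3′ UTR of 3411 bases and at base 4447 of one of 4542 bases.
SLC25A4 site: atttaaattccCACAGCAaatagaaaataa
SLC25A36 site: attcaagatttATGTTCAtagagtgctgtg

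The E-box CACGTG, the letters bound by MYC and related factors, was looked for in the RefSeq promoters on GRCh38.p14, from 250 bases before to 50 after each gene start. The motif is its own reverse complement, so 1 search covers both strands. Promoters were found for 45 members, 36 of them tested, and 8 of the 36, or 22.2%, held the motif, beside 10.5% of 9114 promoters of tested genes. These were *MTCH1*, *MTCH2*, *SLC25A13*, *SLC25A33*, *SLC25A36*, *SLC25A38*, *SLC25A46* and *SLC25A51*. Their median log2 fold change was 0.10, beside -0.06 for the other tested members, and 3 of the 8 were fitted below 0. The promoters of *SLC25A4*, *SLC25A5* and *SLC25A6* did not hold these letters.

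Antisense genes named after members were counted as well, and without a stated use of strand their reads cannot be told apart from those of the sense gene where the annotations overlap. *SLC25A5-AS1* had 21, 28 and 7 counts in scramble and 11, 8 and 15 in siRNA libraries, far below *SLC25A5* with 3437 to 10280 counts. *SLC25A21-AS1* had 36, 77 and 16 counts in scramble and 10, 21 and 42 in siRNA libraries, and its groups overlapped. *SLC25A25-AS1* had 17, 13 and 11 counts in scramble and 24, 11 and 29 in siRNA libraries. None of these 3 was called in the fit used here, though *SLC25A21-AS1* passed when no filter was applied, at -0.87 with an adjusted p of 0.0398 in edgeR beside 0.203 with the filter. In the other 6 alternatives with all libraries it did not pass. The antisense genes of *SLC25A30*, *SLC25A34* and *SLC25A48* had 0 counts in all libraries.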

How the data were processed

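RNA was sequenced with a stranded mRNA kit as 75 bp paired-end reads. The deposited values are counts per gene, not normalized by the authors. The submitters' processing notes name STAR, featureCounts and hg19, whereas the paper's methods name bowtie2 against hg19 and DESeq2. Versions, annotation, use of strand and treatment of reads with several placements or over overlapping genes are not given in the sources used here. Labels name TRIzol and the methods a Maxwell kit for the RNA.

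Groups came from the sample titles, and 0 columns were left unassigned. Genes were named from GENCODE release 44 on GRCh37, which held 55665 of the 63677 identifiers. The counts were filtered with filterByExpr (minimum 10, total 15), scaled with TMM and fitted with edgeR 4.0.16 in R 4.3.3 (quasi-likelihood test, Benjamini-Hochberg, threshold 0.05, no block). A count of 3 was the floor. Each standard error is the size of the log2 fold change over the square root of F. DESeq2 1.42.0, RLE and upper-quartile factors, 2 other filters, a replicate block, added pseudogene counts and leaving out each library were the alternatives. The steps were tested on simulated data.

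The members, role groups and gene lists were chosen with earlier results of these data known. The rule for named genes took the ADP/ATP carriers, every member called, the 2 members of highest CPM and the one of largest fold change in each role group, all untested members, and up to 3 called genes from each other list, or the 2 of highest CPM. Further members are named for completeness, and 2 genes that the rule takes are not reported here. Seed matches, the E-box count, shared windows, antisense genes and the length used for levels were chosen after the values were seen.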

Additional observations from a re-analysis of the deposited data

How the results depend on the processing

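*SLC25A4* was called in all 7 alternatives with all libraries and in all 6 fits without 1 library, at -1.18 to -1.13 and -1.21 to -1.06. Its ratio to *SLC25A5* differed by -0.99 to -0.82 and the summed carrier CPM by -0.30 to -0.20 (log2) when libraries were left out. The number of genes called was 1312 with no filter, against 671, and 139 to 812 without 1 library. With upper-quartile factors 515 of 745 calls were higher, against 392 of 671, and 22 members were fitted lower and 19 higher. Members called numbered 1 to 3 without 1 library. Import genes called numbered 0 with upper-quartile factors, with at least 10 counts in every library and with the replicate block, and 0 to 1 without 1 library. Other transporters called numbered 0 to 2, and adenylate genes 0 to 1, without 1 library. The causes were not tested, but leaving out a library also removes samples. All these fits reuse the same libraries, so a call that recurs shows dependence on processing and is no further support for a member.

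No pairing of the samples by replicate number was seen, though with 3 libraries a group this check could not exclude it. Deviations of same-numbered libraries correlated at -0.07 to 0.16, and 2 of 6 libraries correlated best with their own number. With the replicate block 543 genes were called, among them 2 members, *SLC25A4* and *SLC25A45*, and *SLC25A36* was at 0.59 without being called.

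Changes of sign occurred only in members that were not called. *SLC25A6* ran from -0.083 to 0.032 without 1 library, *SLC25A1* from -0.18 to 0.21, *SLC25A3* from -0.15 to 0.022, *SLC25A11* from -0.12 to 0.0096, *SLC25A14* from -0.16 to 0.054, *SLC25A16* from -0.049 to 0.15, *SLC25A22* from -0.24 to 0.0014, *SLC25A29* from -0.27 to 0.084, *SLC25A40* from -0.17 to 0.31, *SLC25A43* from -0.40 to 0.035, *SLC25A44* from -0.25 to 0.071, *MTCH2* from -0.014 to 0.13 and *UCP2* from -0.30 to 0.11. With upper-quartile factors *SLC25A14* was at 0.0089 and *UCP2* at 0.020, and *UCP2* was at 0.0065 with at least 10 counts in every library.

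The 12 untested members and *SLC25A45* rest on few counts, and the part of depth in this was not tested. Precision of all values is set by 3 libraries a group.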
